A study of Mus musculus with 6 samples.

Results

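MHC class I and peptide loading genes were followed in mouse CD4+ T cells, from naive cells to Th17 and Th1 cells. The 9 genes were taken by symbol from the RNA-Seq count files and make up 9 of the 24223 genes counted. They are the heavy chains *H2-K1*, *H2-D1* and *H2-T23*, the light chain *B2m*, the transporter genes *Tap1* and *Tap2*, the tapasin gene *Tapbp*, the aminopeptidase gene *Erap1* and the transactivator gene *Nlrc5*. All 9 were found in the files and all 9 passed the filter on low counts.

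There were 6 libraries, 2 replicates each of Naive, Th17 and Th1, all from C57BL/6 mice 1 to 2 months old. Naive cells were CD4+CD44- T cells taken with a CD4+CD62L+ isolation kit from pooled lymph nodes and spleens, and no stimulation is described for them. For Th17, naive cells were stimulated through CD3 and CD28 with anti-IL-4, anti-IFN-γ, TGF-β, IL-6, IL-1β and IL-23, and for Th1 with anti-IL-4, IL-12 and IL-2, and both were collected on day 5. No sort of the cultures before the RNA was taken is described, so each Th17 or Th1 library is read as a whole culture, and both differ from Naive in stimulation and culture as well as in lineage, which cannot be told apart.

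MHC class I molecules are made of a heavy chain and β2-microglobulin and show peptides from inside the cell to CD8 T cells. The peptides are cut by the proteasome, carried into the endoplasmic reticulum by the TAP transporter, trimmed there by ERAP1, and loaded with the help of tapasin. Nearly every nucleated cell uses the pathway, T cells included, and interferons raise its genes through STAT and IRF factors and through NLRC5, which acts on class I promoters.

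The upstream sequences of *H2-K1* and *B2m* are shown because a heavy chain and its light chain come from different chromosomes and were both called in Th1 against Th17. *H2-K1* lies at chr17:33996017-34000347 on the minus strand and *B2m* at chr2:122147686-122153083 on the plus strand (GRCm38, the assembly also called mm10). The bases are RefSeq sequence of GRCm38.p6, 5′ to 3′, from chr17:34000348-34000597 for *H2-K1* and chr2:122147437-122147685 for *B2m*, and capitals mark matches to the motifs searched.
H2-K1: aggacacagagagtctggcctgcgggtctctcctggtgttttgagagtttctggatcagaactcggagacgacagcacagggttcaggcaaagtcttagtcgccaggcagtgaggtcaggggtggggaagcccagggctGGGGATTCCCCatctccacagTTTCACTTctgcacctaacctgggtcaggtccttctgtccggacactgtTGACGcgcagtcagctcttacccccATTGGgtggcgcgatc
B2m: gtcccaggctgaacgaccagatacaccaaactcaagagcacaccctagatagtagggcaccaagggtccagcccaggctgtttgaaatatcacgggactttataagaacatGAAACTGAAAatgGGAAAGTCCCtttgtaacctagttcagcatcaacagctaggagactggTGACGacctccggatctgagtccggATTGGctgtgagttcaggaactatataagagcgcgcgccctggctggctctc
Reading from the 5′ end, the *H2-K1* capitals are 2 overlapping NF-kB matches, a match to the IRF half-site pattern AANNGAAA on the other strand, the X2-like core TGACG, and CCAAT on the other strand. In *B2m*, a run that holds both AANNGAAA and the longer ISRE pattern GAAANNGAA comes first, followed by NF-kB, TGACG and CCAAT on the other strand. NF-kB, TGACG and CCAAT occurred together in the 250 upstream bases of *H2-K1*, *H2-D1* and *B2m*, that is in 3 of the 7 genes with an entry, and in 0.488% of the 27025 upstream windows of all genes. Every *H2-K1* match recurred upstream of *H2-D1* with the same letters and in the same order, so these heavy chain genes are not independent cases. The *Tap2* and *Nlrc5* promoters had no entry.

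Each pattern was searched on both strands of the 250 bases before the RefSeq start. AANNGAAA was found upstream of *B2m*, *H2-D1*, *H2-K1* and *H2-T23* and in 21.6% of all windows, in a form chosen after the *H2-K1* window had been read. GAAANNGAA, which overlaps it, was found upstream of *B2m*, *Erap1* and *H2-T23* and in 7.16% of all windows. The GAS pattern TTCNNNGAA was found in 0 of the 7 and in 7.18% of all windows. CCAAT was found in 6 of the 7 and in 34.5% of all windows, TGACG in 4 and in 17.9%, and NF-kB in 3 and in 7.01%. These are letter matches only, and no binding was measured here.

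The levels are CPM, a gene's counts scaled to the TMM-adjusted total of its library. The total ranged from 17742158 to 69080017 counts, and replicate 1 was between 3.38 and 3.77 times as deep as replicate 2 in each cell type. Even the lowest count of the 9 genes, for *Nlrc5* in Th17 replicate 2, was 1175, far above the low counts where relative counting error is largest. Where replicates were close, as for *Erap1* in Th17 and *H2-D1* in Th1, counting error need not be small beside their spread. The labels do not say which mice went into which library, so the p-values below measure the spread between these samples. All 5 general T cell markers (*Cd3e*, *Cd3g*, *Cd4*, *Lck* and *Cd28*) were above 10 CPM in every library. Th17 markers summed to 1473 and 1920 CPM in Th17 and to at most 9.66 CPM elsewhere, and Th1 markers to 775 and 763 CPM in Th1 and to at most 93.9 CPM elsewhere.

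All 9 genes had one order of levels, with Th1 highest, Naive in the middle and Th17 lowest. For each gene both Th17 libraries lay below both Naive libraries, and both Naive libraries lay below both Th1 libraries. This order without overlap was found in 4.46% of the 13607 genes tested. With CPM from the raw library total, without TMM scaling, it was found for 7 of the 9, since *Tap2* and *Nlrc5* then overlapped between Naive and Th1. Summed over the 9 genes, the level was 7382 and 8159 CPM in Naive, 3805 and 3654 CPM in Th17, and 11521 and 12290 CPM in Th1. The 9 genes took between 0.364% and 1.08% of a library's counts.

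**Figure D1:**
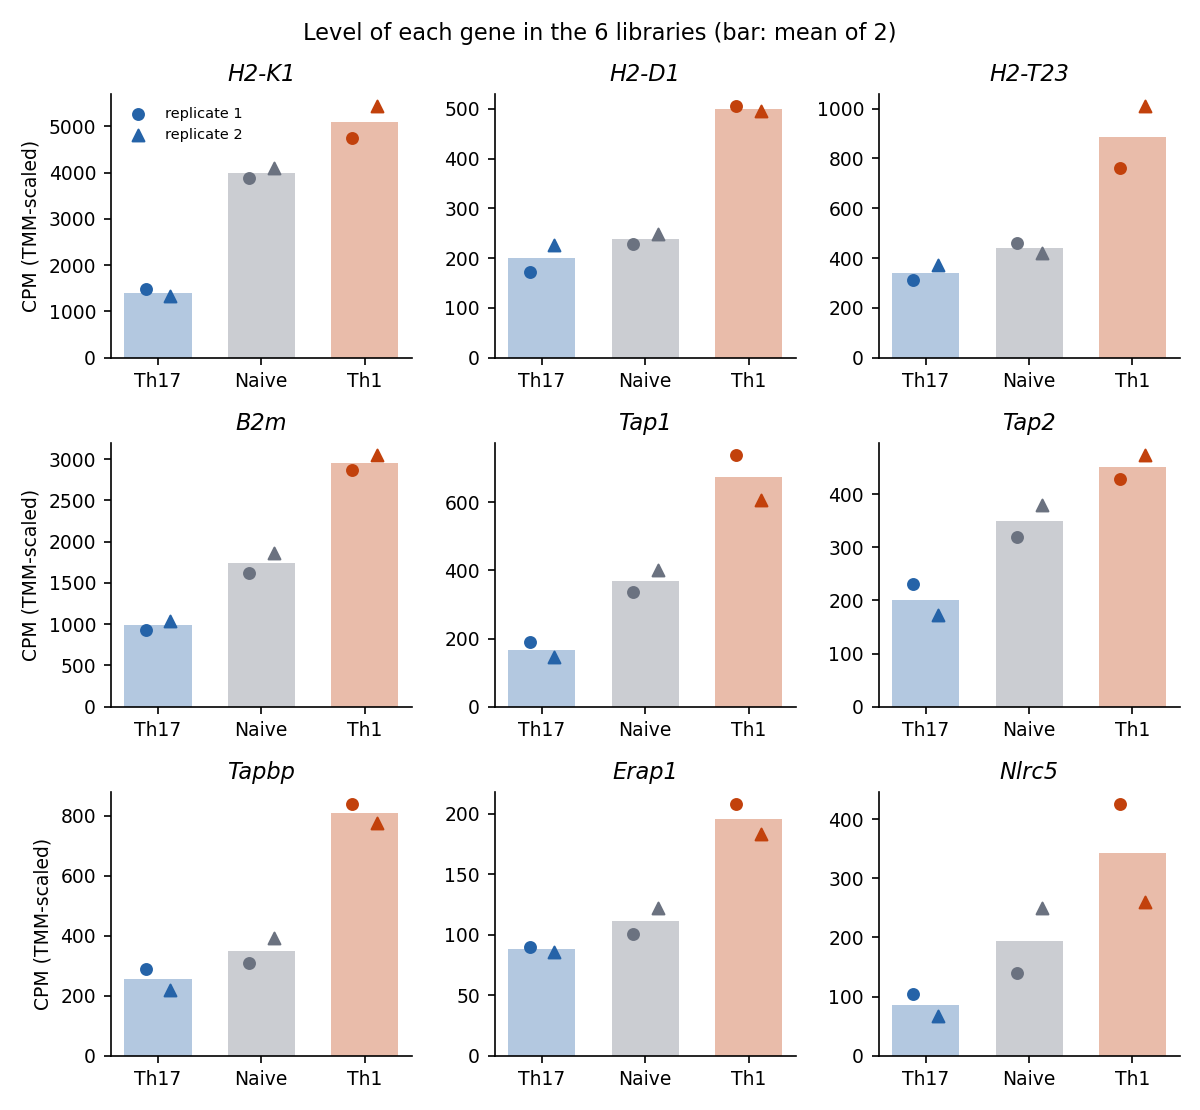
TMM-scaled CPM of the 9 genes (linear axis from 0) in the 6 libraries, with a circle for replicate 1, a triangle for replicate 2 and a bar for the mean of 2. Th17 is lowest and Th1 highest for each gene with no overlap between neighbours, and without TMM scaling *Tap2* and *Nlrc5* overlap between Naive and Th1.

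*H2-K1*, the classical heavy chain K, was measured at 3874 and 4089 CPM in Naive, 1485 and 1326 CPM in Th17, and 4746 and 5437 CPM in Th1. The Th17 libraries stood far below the other 4, while Naive and Th1 were near each other. From Naive to Th17 the log2 fold change was -1.50 ± 0.33 (SE, edgeR adjusted p = 0.0154), which was not called, and Th1 was 3.62-fold above Th17 (log2 1.86 ± 0.33, edgeR adjusted p = 0.00604). Against Naive, Th1 differed by 0.35 with a 95% interval from -0.37 to 1.07.

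*H2-D1*, the classical heavy chain D, stood at 228 and 249 CPM in Naive, 173 and 227 CPM in Th17, and 506 and 495 CPM in Th1. Here it was Th1 that stood apart, and the higher Th17 library came within a few CPM of the lower Naive library. Th1 was 2.10-fold above Naive (log2 1.07 ± 0.27, edgeR adjusted p = 0.0255) and 2.51-fold above Th17 (log2 1.33 ± 0.28, edgeR adjusted p = 0.0119), and neither was called. Between Th17 and Naive the log2 difference was -0.26, with a 95% interval from -0.86 to 0.35.

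*H2-T23* encodes Qa-1, a nonclassical heavy chain that presents leader peptides of other class I molecules. Its level was 460 and 421 CPM in Naive, 310 and 372 CPM in Th17, and 763 and 1010 CPM in Th1. Like *H2-D1*, it was close in Naive and Th17 and higher in Th1, with more spread between the Th1 libraries. The log2 fold change was 1.01 ± 0.29 in Th1 against Naive (edgeR adjusted p = 0.0419), 1.38 ± 0.30 in Th1 against Th17 (edgeR adjusted p = 0.0137) and -0.37 ± 0.29 in Th17 against Naive (edgeR adjusted p = 0.400), none of them called.

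*B2m*, on chromosome 2 and away from the MHC on chromosome 17, encodes the light chain that all of these heavy chains need. It was measured at 1616 and 1856 CPM in Naive, 934 and 1040 CPM in Th17, and 2867 and 3048 CPM in Th1. With TMM scaling the 3 cell types were evenly spaced, with a log2 fold change of -0.81 ± 0.31 from Naive to Th17 and 0.77 ± 0.31 from Naive to Th1. Over the alternatives, library size alone among them, these ranged from -0.91 to -0.72 and from 0.52 to 0.87. The call came only in Th1 against Th17, where *B2m* was 2.997-fold higher (log2 1.58 ± 0.31, edgeR adjusted p = 0.00926). In its profile over the 6 libraries it was the nearest of the 9 to their mean, with a root mean square difference of 0.0981 on the log2 scale.

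*Tap1* and *Tap2* encode the 2 subunits of the peptide transporter. They lie at GRCm38 chr17:34187553-34197225 and chr17:34203527-34216321, both on the plus strand, with *Psmb8* between them. *Tap1* was at 336 and 401 CPM in Naive, 189 and 146 CPM in Th17, and 739 and 608 CPM in Th1. *Tap2* was at 320 and 379 CPM in Naive, 231 and 172 CPM in Th17, and 429 and 474 CPM in Th1. Both had the same order, but *Tap1* covered the wider range. *Tap1* was called in Th1 against Th17, 4.02-fold higher (log2 2.01 ± 0.30, edgeR adjusted p = 0.00242), the smallest adjusted p of the 9 genes in that comparison, and *Tap2* was not (log2 1.16 ± 0.28, edgeR adjusted p = 0.0237). From Naive to Th17 the log2 fold change was -1.14 ± 0.29 for *Tap1* (edgeR adjusted p = 0.0284) and -0.80 ± 0.28 for *Tap2* (edgeR adjusted p = 0.0813).

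*Tapbp*, which encodes tapasin, was measured at 309 and 392 CPM in Naive, 290 and 219 CPM in Th17, and 838 and 776 CPM in Th1. Both Th1 libraries stood well above the other 4, and Naive and Th17 were separated by only a narrow gap. It was 3.17-fold higher in Th1 than in Th17 (log2 1.66 ± 0.30, edgeR adjusted p = 0.00604), which was called, and 2.30-fold higher than in Naive (log2 1.20 ± 0.29, edgeR adjusted p = 0.0208), which was not. This last was the lowest adjusted p of the 9 genes in Th1 against Naive.

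*Erap1*, on chromosome 13, encodes the aminopeptidase that trims peptides in the endoplasmic reticulum. It was at 101 and 122 CPM in Naive, 90.0 and 85.8 CPM in Th17, and 208 and 183 CPM in Th1. The Th1 libraries were again well above the rest, and Naive and Th17 lay close together. None of its changes was called, with a log2 fold change of 0.81 ± 0.25 in Th1 against Naive (edgeR adjusted p = 0.0554) and 1.16 ± 0.26 in Th1 against Th17 (edgeR adjusted p = 0.0157).

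*Nlrc5*, on chromosome 8, encodes the transactivator of class I genes. It was at 139 and 249 CPM in Naive, 103 and 66.5 CPM in Th17, and 425 and 260 CPM in Th1. Its replicates spread most of the 9 genes, and Th1 replicate 2 was barely above Naive replicate 2. Th1 was 4.03-fold above Th17 (log2 2.01 ± 0.39, edgeR adjusted p = 0.00881), which was called. The difference from Naive was 0.82 in Th1 with a 95% interval from -0.03 to 1.67, and -1.19 in Th17 with a 95% interval from -2.04 to -0.34 (edgeR adjusted p = 0.0607). The ratio of Th1 to Naive was 1.61 on the log2 scale between the libraries numbered 1 and 0.06 between those numbered 2.

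The libraries were then compared across all genes, and a call needed an edgeR p-value, adjusted after Benjamini and Hochberg, under 0.01 together with a log2 change of more than 1 either way, the study's thresholds. In Th1 against Th17, 5 of the 9 genes were called higher (*Nlrc5*, *Tap1*, *H2-K1*, *Tapbp* and *B2m*) and 0 lower, beside 2.7% and 2.83% of all genes tested. The other 4, *H2-T23*, *H2-D1*, *Tap2* and *Erap1*, were higher by a log2 fold change between 1.16 and 1.38, with edgeR adjusted p between 0.0119 and 0.0237. The median of the 9 was 1.58 and that of all genes -0.03. Both Th1 libraries exceeded both Th17 libraries for 9 of 9, as did 31.5% of all genes. DESeq2 called all 9 higher, beside 6.72% of the genes it tested. Without 1 library, edgeR called 0 of the 9 when Th17 replicate 1, Th17 replicate 2 or Th1 replicate 1 was left out, and 1 when Th1 replicate 2 was, with the lone sample assumed to vary like the other groups, while their median stayed between 1.50 and 1.61. With library size alone as the scaling, which moved the median of all genes to -0.24, 1 was called and the median of the 9 was 1.37.

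In Th17 against Naive, edgeR called 0 of the 9 genes, beside 1.43% of all genes called lower and 4.01% called higher. At an unadjusted p under 0.05, 5 of the 9 were lower (*H2-K1*, *Tap1*, *Nlrc5*, *Tap2* and *B2m*), as were 16.1% of all genes. DESeq2 called 2 of the 9 lower, beside 4.74% of all genes. The log2 fold changes ran from -1.50 for *H2-K1* to -0.26 for *H2-D1*, with a median of -0.80 beside -0.02 for all genes. Both Th17 libraries were below both Naive libraries for 9 of 9 and for 33.1% of all genes.

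In Th1 against Naive, edgeR also called 0 of the 9, beside 4.64% of all genes called higher and 2.81% called lower. At an unadjusted p under 0.05, 6 were higher (*Tapbp*, *H2-D1*, *H2-T23*, *Erap1*, *Tap1* and *B2m*), as were 15.7% of all genes. DESeq2 called 3 of the 9 higher, beside 7.67% of all genes. The log2 fold changes ran from 0.35 for *H2-K1* to 1.20 for *Tapbp*, with a median of 0.82 beside -0.02 for all genes. Both Th1 libraries were above both Naive libraries for 9 of 9 and for 27.6% of all genes. With library size alone, which moved the median of all genes to -0.26, the median of the 9 was 0.58, and over all genes 399 were called higher and 363 lower in place of 631 and 383. In Th1 against Th17 that scaling gave 202 higher and 352 lower in place of 367 and 385. The 3 comparisons share their libraries, so they are not independent of one another.

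**Figure D2:**
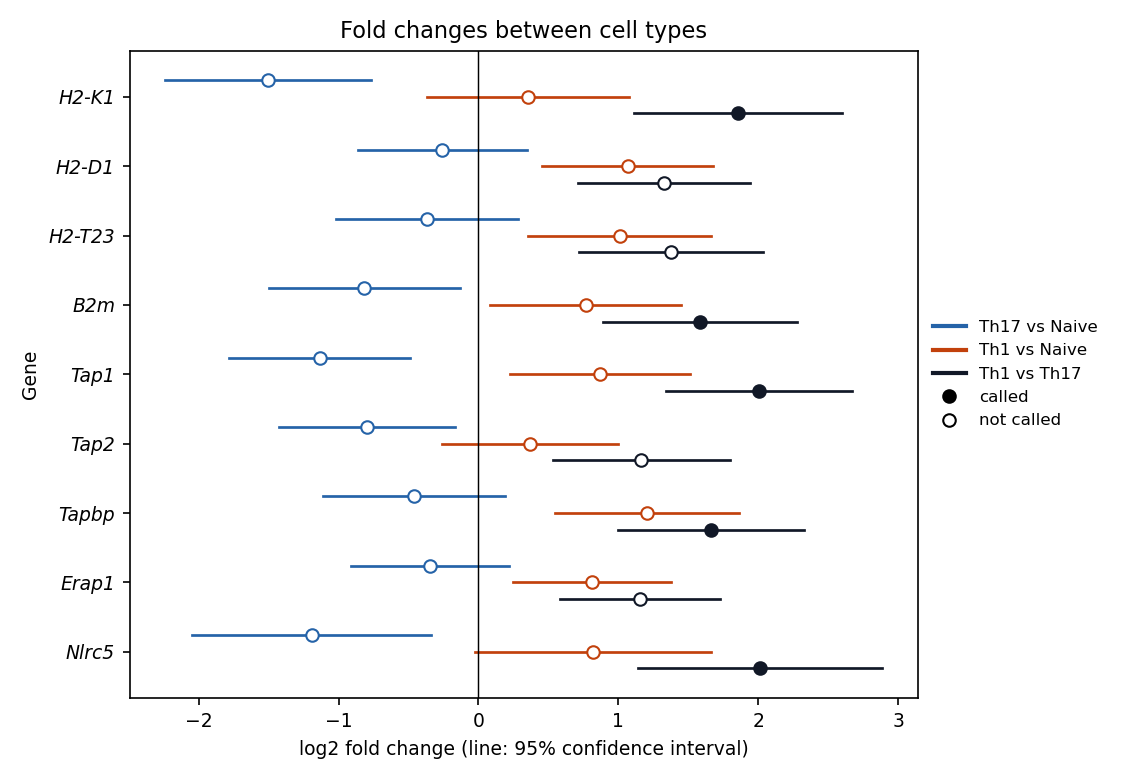
Log2 fold changes (x axis) of the 9 genes (y axis) in the 3 comparisons, with lines for 95% confidence intervals and filled points for genes called. The 5 filled points are all in Th1 against Th17, and the order of the genes differs between Th17 against Naive, where *H2-K1* is lowest at -1.50, and Th1 against Naive, where *Tapbp* is highest at 1.20.

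The order of the 9 genes differed between the comparisons. *H2-K1* had the lowest value in Th17 (-1.50) and the smallest in Th1 against Naive (0.35), whereas *H2-D1* had the smallest in Th17 (-0.26) and 1.07 in Th1. *Tapbp*, *Erap1*, *H2-D1* and *H2-T23* differed more from Naive in Th1 than in Th17, and *H2-K1*, *Tap1*, *Tap2* and *Nlrc5* more in Th17. With TMM scaling, *B2m* differed by nearly the same amount in both. The difference between these patterns was not tested.

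Ratios of raw counts within a library need no scaling between libraries and were read as a description. *H2-K1* plus *H2-D1* over *B2m* was 2.54 and 2.34 in Naive, against 1.78 and 1.49 in Th17 and 1.83 and 1.95 in Th1. The Naive libraries were thus above the other 4. The ratio of *H2-D1* to *H2-K1* was 0.0589 and 0.0609 in Naive, against 0.116 and 0.171 in Th17 and 0.107 and 0.0911 in Th1. The ratio of *H2-T23* to *H2-K1* was 0.119 and 0.103 in Naive, against 0.209 and 0.281 in Th17 and 0.161 and 0.186 in Th1. In both, *H2-K1* held a larger share of these heavy chains in Naive than in either cultured cell type. *Tap1* over *Tap2* was 1.05 and 1.06 in Naive, against 0.821 and 0.848 in Th17 and 1.72 and 1.28 in Th1. The cell types did not overlap. With 2 libraries against 2, an exact permutation test could not fall under 0.05 for any of these. The ratio of *H2-D1* to *H2-K1* and that of *H2-K1* to *B2m* were added after the data had been seen.

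**Figure D3:**
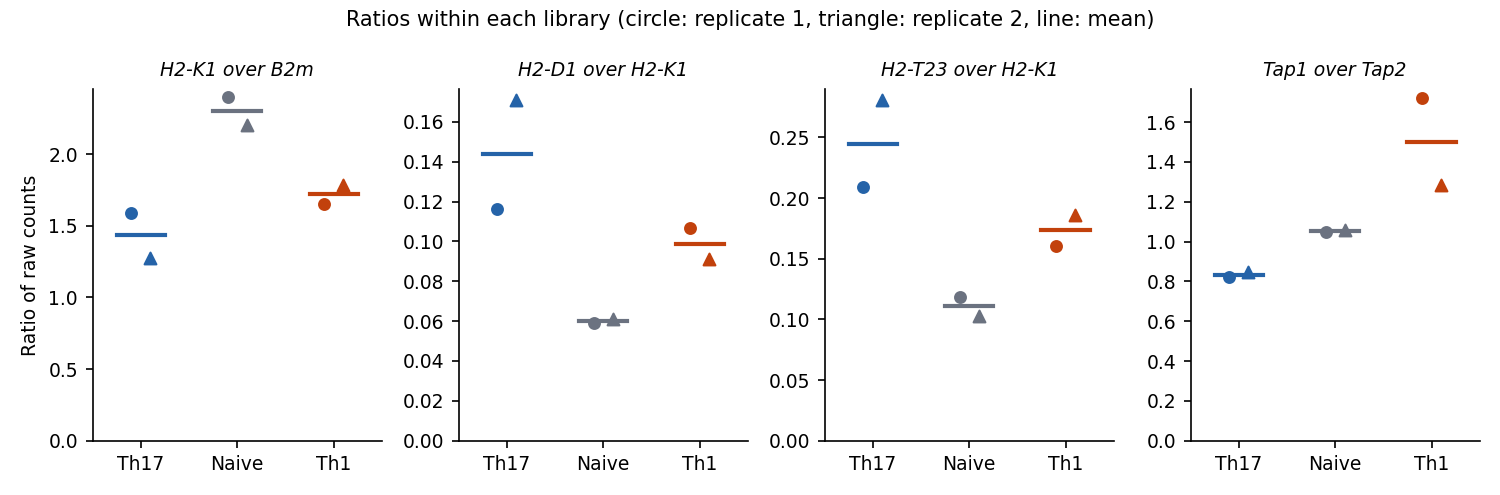
Ratios of raw counts within each library (linear axes from 0), with a circle for replicate 1, a triangle for replicate 2 and a line for their mean. *H2-K1* over *B2m* is highest in Naive, *H2-D1* and *H2-T23* over *H2-K1* are lowest in Naive, and *Tap1* over *Tap2* runs from 0.821 in Th17 to 1.72 in Th1.

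Between genes, levels were compared per kilobase of exons, as the mean of 2 libraries. *B2m* had the highest level in each cell type, with 2018, 1147 and 3439 CPM per kb for Naive, Th17 and Th1 in that order, ranking 9, 48 and 4 among the 23059 genes with a length. *H2-K1* came next with 1355, 478 and 1733 CPM per kb, and ranked 25, 103 and 18. *H2-D1* reached 92.5, 77.4 and 194 CPM per kb and *H2-T23* 152, 118 and 307 CPM per kb. On this scale *H2-T23* was above *H2-D1* in each cell type, an order that reads lost among similar genes could alter. *Tapbp*, *Tap2* and *Tap1* had 96.5, 92.5 and 67.3 CPM per kb in Naive, and the lowest were *Nlrc5* with 22.9 and *Erap1* with 15.3 CPM per kb there. In Th17 the 2 lowest changed places, and *Nlrc5* was below the 12.1 CPM per kb of *Erap1*.

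Heavy chain genes resemble one another, so reads can be lost or shared among them. Of the 100-base windows of their GENCODE vM21 transcripts, 0.957% of *H2-K1*, 3.59% of *H2-D1* and 3.15% of *H2-T23* also occurred in another gene, against 0.0775% of *Tapbp* and none for *B2m*, *Tap1*, *Tap2*, *Erap1* and *Nlrc5*. Exons of *Tap1* overlap those of *Psmb9* on the other strand, those of *Erap1* overlap *Cast*, those of *Tap2* overlap *Gm15821* and *Gm20496* and those of *Nlrc5* overlap *9330175E14Rik*, also on the other strand, and those of *Tapbp* overlap *Gm19412* on the other strand and *Zbtb22* on the same strand. The HTSeq default and the supplementary code both count by strand but name opposite strands, and which was used for these counts is not settled by the sources, so the counts of these pairs are uncertain. *H2-L* and *H2-Q6* to *H2-Q9* were listed at 0 in all libraries, and their absence was not read as a lack of expression.

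The rest of the class I pathway was taken from 4 lists of 59 genes, of which 47 were tested. In Th1 against Th17, 5 of the 47 were called higher and 1 lower, in Th17 against Naive 2 higher and 2 lower, and in Th1 against Naive 1 higher and 1 lower. Over all genes the shares called higher and lower were 2.7% and 2.83%, 4.01% and 1.43%, and 4.64% and 2.81% in the same order. The medians were 0.38, -0.16 and 0.31 on the log2 scale. Among the other class I heavy chains, 12 of 24 were tested, and *H2-Q4*, *H2-Q5*, *H2-T10* and *H2-T24* were called higher in Th1 than in Th17, while *Cd1d1*, which presents lipids to NKT cells, was called lower.

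*H2-Q4* was measured at 414 and 565 CPM in Naive, 192 and 149 CPM in Th17, and 690 and 556 CPM in Th1, and was 3.66-fold higher in Th1 than in Th17 (edgeR adjusted p = 0.00419). *H2-T10* was at 44.5 and 58.8 CPM in Naive, 19.1 and 17.3 CPM in Th17, and 78.4 and 59.3 CPM in Th1, and *H2-T24* at 40.1 and 44.4, 16.0 and 18.2, and 70.4 and 47.9 CPM. With TMM scaling both had the order of the 9 genes, with log2 fold changes of 1.92 and 1.79 in Th1 against Th17. Without that scaling, Naive and Th1 overlapped for both. In Th1 against Naive their log2 values were 0.42 and 0.49 (edgeR adjusted p = 0.368 and 0.299), not called. *H2-T10* was also called lower in Th17 than in Naive (log2 -1.50, edgeR adjusted p = 0.00822). *H2-Q5* departed from the order of the 9 genes, with 32.1 and 47.7 CPM in Naive, 7.05 and 4.36 CPM in Th17, and 25.05 and 22.3 CPM in Th1. It was called lower in Th17 than in Naive by a log2 fold change of -2.79 and higher in Th1 than in Th17 by 2.04. Of its windows, 14.0% were shared with other genes, as were 7.06% of those of *H2-T10*.

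*Cd1d1* was at 32.4 and 34.4 CPM in Naive, 32.6 and 39.1 CPM in Th17, and 6.50 and 12.3 CPM in Th1. It was called lower in Th1 than in Naive (log2 -1.84) and than in Th17 (log2 -1.94), and 10.5% of its windows were shared with *Cd1d2*. *H2-M2* had 0 counts in both Naive libraries, 0.689 and 14.3 CPM in Th17, and was called higher in Th17, at least 77.6-fold on the means against the floor of 3 counts per library. Without Th17 replicate 2 that bound was 7.15-fold and the call was lost (edgeR adjusted p = 0.0466), as it was without Naive replicate 1 (edgeR adjusted p = 0.0453) or Naive replicate 2 (edgeR adjusted p = 0.0198). The markers of macrophages and dendritic cells summed to 20.6 and 57.2 CPM in the same Th17 libraries. They summed to 20.4 and 10.6 CPM in Naive and to 16.0 and 10.6 CPM in Th1. Their part in the *H2-M2* level was not tested. Not called, *H2-Q2* was under 4 CPM in every library with a log2 value of -3.52 in Th17 against Naive, and *H2-Q10*, also under 4 CPM, with 2.07 in Th1 against Naive.

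Among loading complex and quality control genes, 0 of 6 were called in edgeR in any comparison. At an unadjusted p under 0.05 there were 0 of 6 in Th17 against Naive, 2 of 6 in Th1 against Naive and 1 of 6 in Th1 against Th17, beside 33.3%, 29.9% and 33.8% of all genes in either direction. *Tapbpl*, the tapasin-related TAPBPR, had a log2 value of 1.16 in Th1 against Th17 (edgeR adjusted p = 0.0184), and *Pdia3*, the oxidoreductase ERp57, had 1.04 in Th1 against Naive (edgeR adjusted p = 0.0491). Of the 12 peptide supply genes, 0 were called, with 1, 4 and 3 at an unadjusted p under 0.05 in Th17 against Naive, Th1 against Naive and Th1 against Th17. *Tpp2*, a cytosolic peptidase, had 1.00 in Th1 against Th17 (edgeR adjusted p = 0.0282) and *Thop1*, another, had -1.22 in Th17 against Naive (edgeR adjusted p = 0.124).

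Of the 17 transcription factors of the pathway, 17 were tested. *Irf8*, an interferon regulatory factor, was at 58.8 and 37.5 CPM in Naive, 30.6 and 28.0 CPM in Th17, and 172 and 128 CPM in Th1. It was called higher in Th1 than in Naive (log2 1.64, edgeR adjusted p = 0.00537) and than in Th17 (log2 2.36, edgeR adjusted p = 0.00128). *Stat2*, a signal transducer of type I interferons, was not called, with a log2 value of 1.31 in Th1 against Th17 (edgeR adjusted p = 0.0770), with Th1 libraries at 158 and 50.01 CPM that spread widely. *Ciita*, the class II transactivator and a relative of *Nlrc5*, was called higher in Th17 than in Naive (log2 3.11, edgeR adjusted p = 0.00722). Its level was 6.84 and 4.58 CPM in Th17 against 0.866 and 0.396 CPM in Naive, where it had 59 and 8 counts. With each library left out in turn, its log2 value ran from 2.71 to 3.85 and the call did not always hold. Over the 17, the median was 0.85 in Th1 against Th17, beside 1.58 for the 9 genes.

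**Figure D4:**
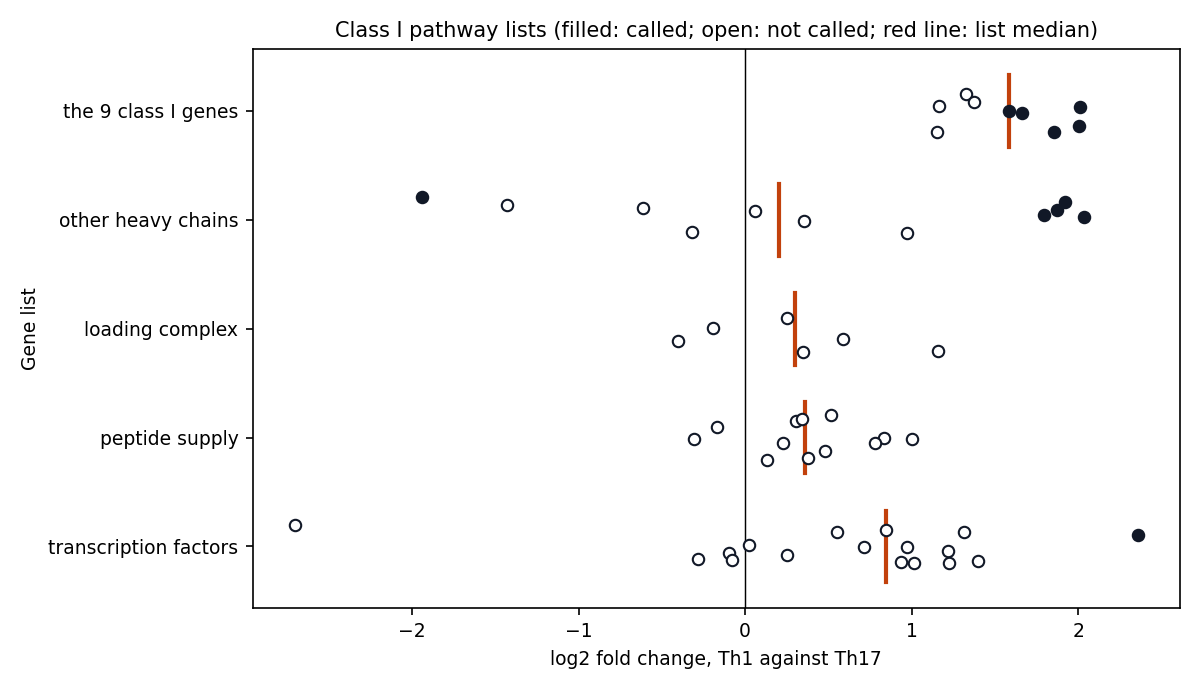
Log2 fold change in Th1 against Th17 (x axis) of the 9 genes and of 4 lists of the class I pathway (y axis), 1 point per gene with filled points called, and red lines for list medians. *H2-M2* lies at lower values than the axis shows and is left out as a point but kept in its list's median, and the 9 genes all lie above 1.

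Counts of calls on these lists changed when single libraries were left out. In Th1 against Th17, 6 genes of the 47 were called, and 1, 0, 1 and 5 without Th17 replicate 1, Th17 replicate 2, Th1 replicate 1 and Th1 replicate 2, and 8 and 10 without Naive replicate 1 and 2. In Th17 against Naive, 4 were called, and 1, 1, 2 and 0 without Naive replicate 1, Naive replicate 2, Th17 replicate 1 and Th17 replicate 2. In Th1 against Naive, 2 were called, and 1, 0, 0, 1 and 0 without Naive replicate 1, Naive replicate 2, Th17 replicate 1, Th17 replicate 2 and Th1 replicate 1.

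Outside all lists, and among the 8756 genes with a mean of at least 10 CPM, the 5 genes whose log2 profile over the 6 libraries was nearest the mean of the 9 were *Eefsec*, *Ly6e*, *Slc25a25*, *Sntb2* and *Usp25*, with root mean square differences from 0.118 to 0.132. *Ly6e*, a gene of the Ly6 family, was at 689 and 766 CPM in Naive, 484 and 470 CPM in Th17, and 1392 and 1583 CPM in Th1. Among the 9 themselves the difference from their mean ran from 0.0981 for *B2m* to 0.352 for *Nlrc5*. With Pearson's r over the 6 libraries in place of the difference, the 5 nearest genes were *Tnks1bp1*, *Il6st*, *Tmco4*, *1110037F02Rik* and *Tmbim6*, and none was shared.

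Markers of other cells were read beside these values, since in a bulk library fewer cells of a type and less RNA per cell cannot be told apart. The 8 neutrophil markers summed to 371 and 219 CPM in Naive, 2940 and 2834 CPM in Th17, and 30.6 and 41.9 CPM in Th1. In Th17, 8 of 8 were above 10 CPM. Of the 8, 5 had their highest mean in Th17 and their lowest in Naive (*S100a8*, *S100a9*, *Ngp*, *Ltf* and *Camp*), 2 were highest in Th17 and lowest in Th1 (*Elane* and *Prtn3*), and *Mpo* was highest in Naive at 251 and 159 CPM, against 68.1 and 58.7 CPM in Th17. The 6 mast cell and basophil markers summed to 70.8 and 22.4 CPM in Naive, 213 and 430 CPM in Th17, and 55.2 and 43.2 CPM in Th1. The erythroid markers summed to 601 and 103 CPM in Naive and to at most 2.15 CPM in the cultured cells, with *Hba-a1* and *Hbb-bs* listed at 0 in all libraries. B cell markers summed to at most 19.7 CPM, markers of CD8 T and NK cells to at most 28.1 CPM and those of macrophages and dendritic cells to at most 57.2 CPM in every library. The part of these cells in the levels of the 9 genes was not tested.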

How the data were processed

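Raw counts per gene were analysed for 6 libraries of Naive, Th17 and Th1 cells. The authors used HISAT2 2.2.1 for alignment to mm10 and HTSeq 0.13.5 for counting, and the deposited values are these whole-number counts, not normalized. Duplicate removal and default HTSeq settings are given in the methods, while the supplementary code has no such removal and sets reverse strand. The gene annotation is not given in the sources used here. Of 24223 genes, 13607 passed filterByExpr and were tested in R 4.3.3 with edgeR 4.0.16 (quasi-likelihood F-test, TMM, cell type as the only term), and DESeq2 1.42.0 was an alternative. CPM values are TMM-scaled, log2 CPM used a prior count of 2, and a floor was 3 counts per library. Depth was examined by thinning to the smallest library, and the effect of PCR duplicates on the counts was not tested. Lengths came from GENCODE vM21 (GRCm38) and upstream bases from RefSeq. The fit was tested on simulated counts. The 9 genes and the lists were chosen with earlier results of these data known. Named were the 9 genes, list genes called in any comparison, up to 2 others per list with the largest change, and the 5 nearest profiles outside the lists. Other marker genes were named where a value needed it. Not every gene under this rule is reported here. Alternatives were RLE factors, library size alone, other filters, the replicate number as a block, thinning, the 4 libraries compared, other thresholds and leaving out each library.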

Additional observations from a re-analysis of the deposited data

How the results depend on the processing

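No result changed direction, and the median of the 9 genes ranged from -0.91 to -0.60 in Th17 against Naive, 0.58 to 0.96 in Th1 against Naive and 1.37 to 1.61 in Th1 against Th17. Counts of calls are given for the 9 genes in the order Th17 against Naive, Th1 against Naive and Th1 against Th17, and then for the other 47 pathway genes tested in that order. They were 0, 0 and 5, and 4, 2 and 6. With DESeq2 they were 2, 3 and 9, and 8, 3 and 13. Without a filter on low counts they were 3, 2 and 9, and 9, 3 and 14. At an adjusted p under 0.05 they were 2, 3 and 9, and 8, 3 and 14. With library size alone they were 0, 0 and 1, and 1, 1 and 3. With at least 10 counts in every library they were 0, 0 and 3, and 1, 2 and 6. Thinned to the smallest library they were 0, 0 and 3, and 2, 1 and 5. With only the 4 libraries compared they were 0, 0 and 5, and 5, 0 and 9. RLE factors and no fold limit left them at 0, 0 and 5, and 4, 2 and 6. Leaving out each library in turn gave 0 to 0, 0 to 0 and 0 to 6, and 0 to 5, 0 to 2 and 0 to 10. Libraries of the same number did not deviate together (r = -0.23 for Naive and Th17, 0.17 for Naive and Th1, 0.08 for Th17 and Th1, over 13607 genes), so the pairing was not taken as shown. Replicate 1 is also the deeper library in each cell type. The replicate block gave 0, 0 and 5, and 5, 2 and 8 with edgeR, and 2, 2 and 9, and 7, 2 and 11 with DESeq2. With the Th17 numbers crossed in the block, a pairing added after seeing the data, the counts were 0, 0 and 7, and 6, 2 and 10. The cause of these shifts was not tested. Single values of the 9 genes stayed on their side of the threshold in 376 cases, passed it in 29 and lost it in 27, and those of the named pathway genes in 242, 21 and 54.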
